A study of Rattus norvegicus with 6 samples.

Results

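The miR-183 cluster is a group of microRNA (miRNA) genes that lie next to each other and give miR-183, miR-96 and miR-182. Its reads were followed here in primary sertoli cells of the rat, which line the seminiferous tubule and nurse the germ cells, with and without 4-nonylphenol (4-NP), an alkylphenol with estrogen-like action. The rows were chosen by name: every mature row of rno-miR-183, rno-miR-96, rno-miR-182 and rno-miR-3553 (rno- for Rattus norvegicus is dropped below), the last from a gene on the opposite strand over that of miR-183. These 4 names gave 6 of the 734 mature rows in the count table. The names were proposed with the change of miR-182 and miR-96-5p under 4-NP already known, so the differences between the groups in these rows are given as descriptions and no p-value is given for them.

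The control group was cultured with 0 mM 4-NP and the treated group with 0.5 mM 4-NP, and both were collected at 24 h, with 3 samples each. The cells came from testes of Sprague-Dawley rats 5 to 10 days old and were grown in medium with fetal bovine serum before treatment. The culture was enriched by enzyme digestion and not sorted, and nothing in the sources used here says whether the 3 samples of a group were separate cultures, so the spread between them may be technical. Small RNA was cut from a gel and sequenced. Reads on mature miRNAs numbered 20023200 to 23426742 per sample. Levels are given as CPM, that is reads per 1000000 mature miRNA reads of the same sample, and a count of 0 allows up to 3 reads, or 0.128 to 0.150 CPM. Reads and not molecules were counted, so intervals and limits cover counting error only.

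A miRNA guides the silencing complex to messenger RNAs that pair with its seed, bases 2 to 8. The miR-183 cluster is transcribed as a common precursor RNA and is conserved across vertebrates. It is best known from sensory cells, such as photoreceptors and the hair cells of the inner ear, and mutations in the seed of miR-96 cause hearing loss in humans and mice. The repressor ZEB1 can hold down this cluster together with the miR-200 family, whose members are abundant in epithelial cells. miR-96 and miR-182 are known to act on the messenger RNA of FOXO1, a transcription factor of stress and metabolism.

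The mature sequences are shown because shared letters decide both which targets the members can share and which reads can be assigned to which member. They are from RefSeq (GRCr8), 5′ to 3′, with the seed in capitals. All 6 rows were matched. The genes of miR-182, miR-96 and miR-183 are on the minus strand of chromosome 4 and that of miR-3553 is on the plus strand. The build behind the deposited counts is not given in the sources used here, so positions are left out.
miR-96-5p: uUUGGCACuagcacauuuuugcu
miR-182: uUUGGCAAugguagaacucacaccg
miR-183-5p: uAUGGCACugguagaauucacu
miR-96-3p: cAAUCAUGugcagugccaauau
miR-183-3p: uGAAUUACcgaagggccauaa
miR-3553: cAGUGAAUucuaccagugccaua

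miR-96-5p and miR-182 have the same bases 2 to 7 and differ at the last base of the seed. Counted from the first base without gaps, 6 of the 7 seed bases were identical between miR-96-5p and miR-183-5p and 5 of 7 between miR-182 and miR-183-5p. Over the whole length, miR-182 is closer to miR-183-5p, with 18 of 22 positions identical, than to miR-96-5p, with 12 of 23. No other mature entry among the 693 in RefSeq has bases 2 to 8 of any of the 6 rows, and apart from the pair of miR-96-5p and miR-182 none has bases 2 to 7. The members therefore had no other seed relative among the sequences compared.

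miR-3553 is, read on the other strand, miR-183-5p. In the line below the letters in capitals are the run it has in common with miR-183-5p.
Reverse complement of miR-3553: UAUGGCACUGGUAGAAUUCACUg

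This run covers all 22 bases of miR-183-5p and 22 of the 23 bases of miR-3553. How the counting treated strand is not given in the sources used here, so reads of these rows cannot be told apart, and their sum is used below beside each row.

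The cluster as a whole was higher in the 4-NP samples. The 6 rows together had 51.1, 53.1 and 47.2 CPM in control samples 1, 2 and 3 and 203, 161 and 211 CPM in 4-NP samples 1, 2 and 3. The means were 50.5 ± 2.99 and 191 ± 26.7 CPM (SD, n = 3 each), a ratio of 3.79 in the means. The lowest 4-NP sample was 3.03 times the highest control. miR-96-5p held most of the cluster reads in each sample but 4-NP sample 2, where it held 47.1% (95% exact binomial interval 45.4 to 48.9%).

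miR-182 differed most between the groups among the rows with stable counts. It had 240, 288 and 273 reads in the control samples and 1292, 1238 and 1625 under 4-NP, or 10.2, 12.5 and 12.2 CPM against 58.4, 61.8 and 74.2 CPM. The groups did not overlap, and the lowest 4-NP sample was 4.68 times the highest control. The means were 11.7 ± 1.23 and 64.8 ± 8.33 CPM (SD, n = 3 each), and the log2 ratio of the means was 2.48 (standard error 0.14 from the replicate SDs). By read count miR-182 ranked between 268 and 283 among the 734 mature rows in the control samples and between 152 and 172 under 4-NP.

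miR-96-5p was the most abundant member in every sample. It had 827, 755 and 647 reads in the control samples and 2734, 1518 and 2576 under 4-NP, or 35.3, 32.7 and 29.0 CPM against 124, 75.8 and 118 CPM. All 4-NP samples lay above all controls, with 4-NP sample 2 well below the other two. The means were 32.3 ± 3.15 and 106 ± 26.0 CPM (SD, n = 3 each), with a log2 ratio of 1.71 (standard error 0.22).

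miR-183-5p alone showed no stable difference. It had 14, 25 and 120 reads in the control samples and 396, 358 and 8 under 4-NP, or 0.598, 1.08 and 5.38 CPM against 17.9, 17.9 and 0.365 CPM. 4-NP sample 3 was below every control, so the groups overlapped. The log2 ratio of the means was 2.36 with a standard error of 1.17, and it moved to 3.84 without control sample 3 and to 2.93 without 4-NP sample 3.

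miR-3553 had the opposite pattern across the samples. Its reads numbered 114, 157 and 5 in the control samples and 55, 92 and 386 under 4-NP, or 4.87, 6.80 and 0.224 CPM against 2.49, 4.59 and 17.6 CPM. The samples low in miR-183-5p were high in miR-3553 and the reverse. Its log2 ratio of 1.06 (standard error 1.09) fell to -0.16 without 4-NP sample 3.

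The sum of miR-183-5p and miR-3553 was steady within each group. It was 5.46, 7.88 and 5.61 CPM in control samples 1, 2 and 3 and 20.4, 22.5 and 18.0 CPM in 4-NP samples 1, 2 and 3, from 451, 450 and 394 reads in the latter. The groups did not overlap, and the lowest 4-NP sample was 2.28 times the highest control. The means were 6.32 ± 1.36 and 20.3 ± 2.24 CPM (SD, n = 3 each), with a log2 ratio of 1.68 (standard error 0.20), close to that of miR-96-5p. The pooled SD between replicates on the log2 scale was 0.24 for the sum, against 2.49 for miR-183-5p and 2.08 for miR-3553 with 1 read added to each count.

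**Figure D1:**
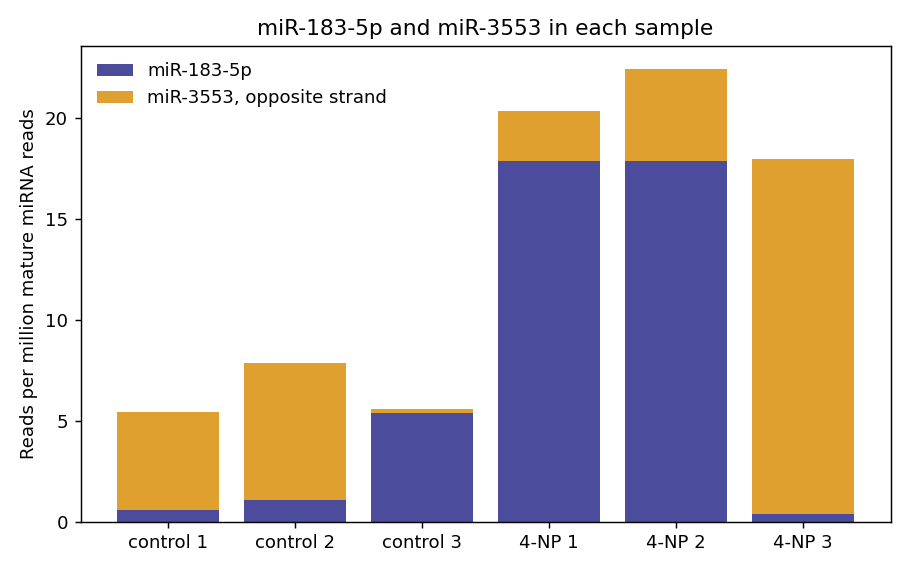
CPM for miR-183-5p (lower part of each bar) and miR-3553 (upper part) in the 3 control and 3 4-NP samples. The division between the rows changes from sample to sample within a group, while the whole bar is 5.46 to 7.88 CPM in the control samples and 18.0 to 22.5 CPM under 4-NP.

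As a share of the summed reads, miR-183-5p took 10.9% (95% exact binomial interval 6.11 to 17.7%), 13.7% (9.09 to 19.6%) and 96% (90.9 to 98.7%) in control samples 1, 2 and 3. After 4-NP it took 87.8% (84.4 to 90.7%), 79.6% (75.5 to 83.2%) and 2.03% (0.881 to 3.96%). Each group thus held samples counted mostly on either row, and the intervals from counting error do not bridge them.

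This division was compared with the other mature miRNAs that lie on opposite strands with an overlap of at least 15 bases in GRCr8. With at least 20 summed reads in every sample, there were 37 such pairs, the miR-183-5p pair included. The share of the first-named row ranged over 94.0 percentage points between samples for miR-183-5p and miR-3553, the fifth widest range, against a median of 8.11 points over all pairs. In 8 of the 37 pairs the range was over 50 points. For 24 of the 37, the sum varied less between replicates than either row. A sum can vary less than its rows even when they are independent, so nothing is read from this count.

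The wide pairs did not divide in a common set of samples. Each sample was placed by whether the first-named row held more or less than 50% of the pair. Of the 7 other pairs with a range over 50 points, 2 parted the samples as miR-183-5p and miR-3553 did (control sample 3 and 4-NP samples 1 and 2 against the rest), and the other 5 parted them in other ways. miR-3570 took 1.54%, 18.5% and 79.4% of its pair with miR-181a-1-3p in the control samples and 97.3%, 81.7% and 1.80% under 4-NP. miR-3576 took 74.7%, 97.9% and 33.1% of its pair with miR-539-5p in the control samples and 42.6%, 3.36% and 96.4% under 4-NP, the same parting with the sides exchanged. Among those that parted otherwise, miR-3578 took 97.1%, 1.33% and 37.9% of its pair with miR-369-5p in the control samples and 2.67%, 63.9% and 33.4% under 4-NP. The pairs share their libraries, and the cause of the divisions was not tested.

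**Figure D2:**
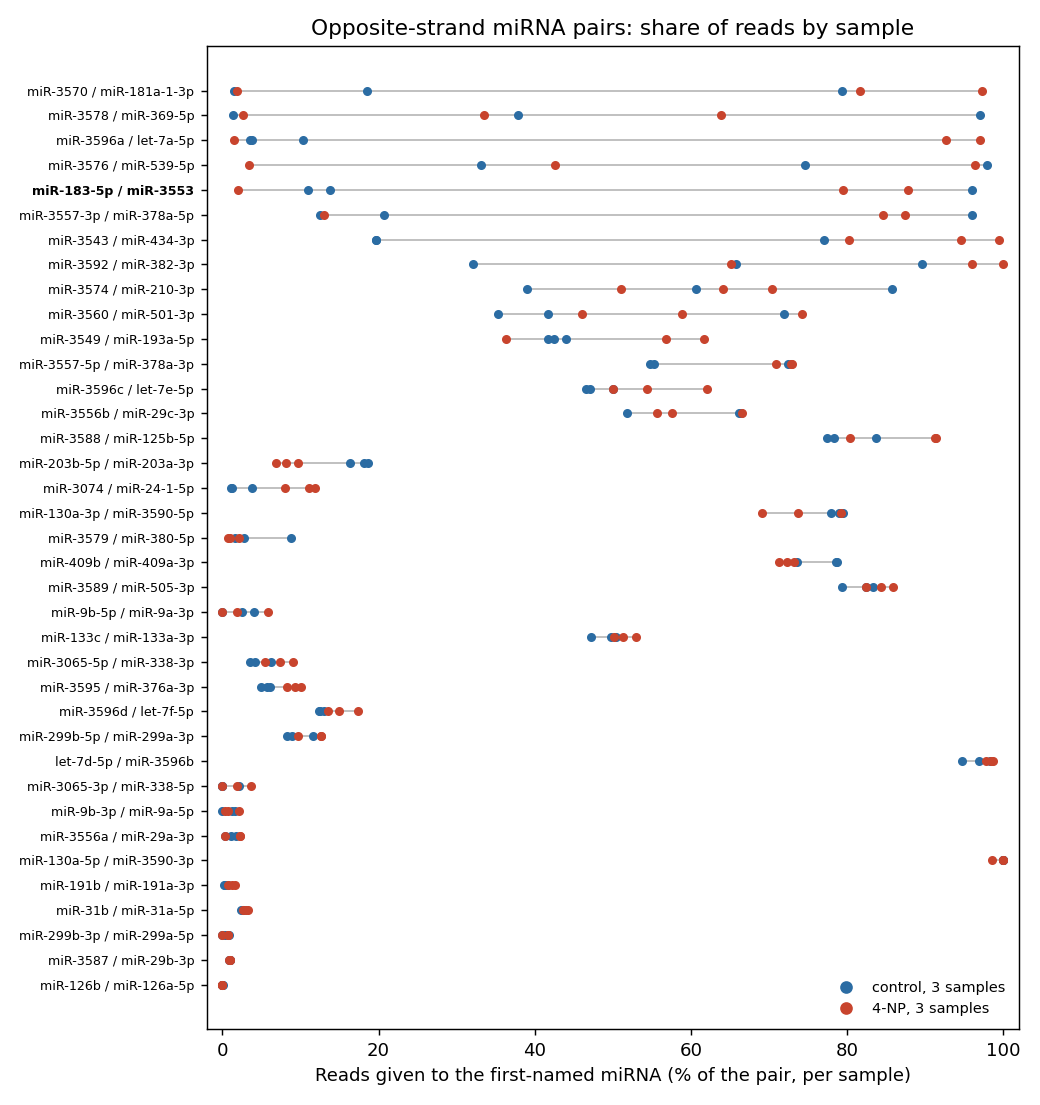
Share of the reads of each opposite-strand pair given to the first-named miRNA, in percent, with a point per sample (blue control, red 4-NP) and a line over the range, for 37 pairs ordered by that range. The pair of miR-183-5p and miR-3553, in bold, runs from 2.03 to 96%, and points of both colours lie at both ends.

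The passenger arms were near the limit of detection. miR-183-3p, from the other arm of the miR-183 hairpin, had 2, 2 and 8 reads in the control samples and 8, 10 and 10 under 4-NP, so the highest control and the lowest 4-NP sample had the same number of reads. It made up 1.09 to 6.02% of all miR-183 and miR-3553 reads in the control samples and 1.74 to 2.48% under 4-NP. miR-96-3p had 0 reads in all controls and 1, 5 and 7 under 4-NP. In the controls 0 of 827, 755 and 647 miR-96 reads allow a share of the 3p arm of up to 0.363, 0.397 and 0.464%, and under 4-NP it was 0.0366, 0.328 and 0.271%, so no difference in arm use was detectable at this depth.

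**Figure D3:**
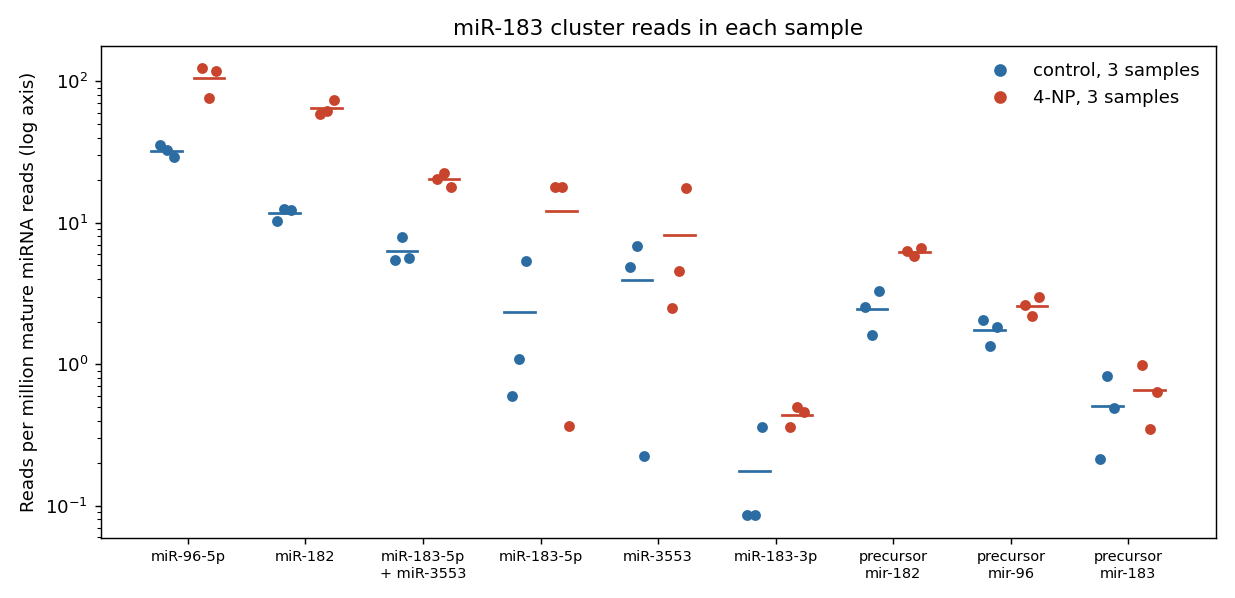
CPM (log axis) of cluster rows, of the sum of miR-183-5p and miR-3553, and of the precursor rows, with a point per sample and a bar at the mean of each group (blue control, red 4-NP, 3 samples each). miR-96-5p, miR-182 and the sum separate the groups, while miR-183-5p and miR-3553 each overlap between the groups. miR-96-3p, at 0 in the controls, is left out.

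Of the 6 rows, 4 passed the filter on low counts of the edgeR fit over all mature miRNAs, the 3p arms being removed. miR-182 and miR-96-5p were 2 rows higher at a Benjamini-Hochberg adjusted p under 0.05, and no row was lower. In the same fit 7.47% of the 549 tested miRNAs were higher and 12.8% were lower. With miR-183-5p and miR-3553 summed into 1 row, a setting added after the values were seen, 3 of 3 rows that passed the filter were higher. The groups did not overlap, with 4-NP higher, for miR-182, miR-96-5p and the sum, as was the case for 19.9% of the tested miRNAs. The rows were chosen on this contrast, so nothing is read from these counts.

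In these samples miR-182 differed between the groups by a larger factor than miR-96-5p or the miR-183 sum, which was not tested. Ratios of reads within a sample do not depend on the scaling. miR-96-5p had 3.45, 2.62 and 2.37 reads per miR-182 read in the control samples and 2.12, 1.23 and 1.59 under 4-NP. Each 4-NP sample was below each control. There were 1.88, 1.58 and 2.18 miR-182 reads per read of the miR-183 sum in the control samples and 2.86, 2.75 and 4.12 under 4-NP, with 4-NP higher and no overlap. Both ratios include miR-182, so they are not independent. Among the levels of all tested miRNAs, 19.9% were higher and 22.6% lower under 4-NP without overlap.

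miR-96-5p and the miR-183 sum kept their proportion within the spread of the samples. There were 6.46, 4.15 and 5.18 miR-96-5p reads per read of the sum in the control samples and 6.06, 3.37 and 6.54 under 4-NP, and the groups overlapped. The share of miR-182 in the cluster was 20.1, 23.5 and 25.9% in the control samples and 28.8, 38.4 and 35.2% under 4-NP. Counts were not corrected for unequal capture of different sequences, so the ratios compare samples and not the amounts of the miRNAs.

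**Figure D4:**
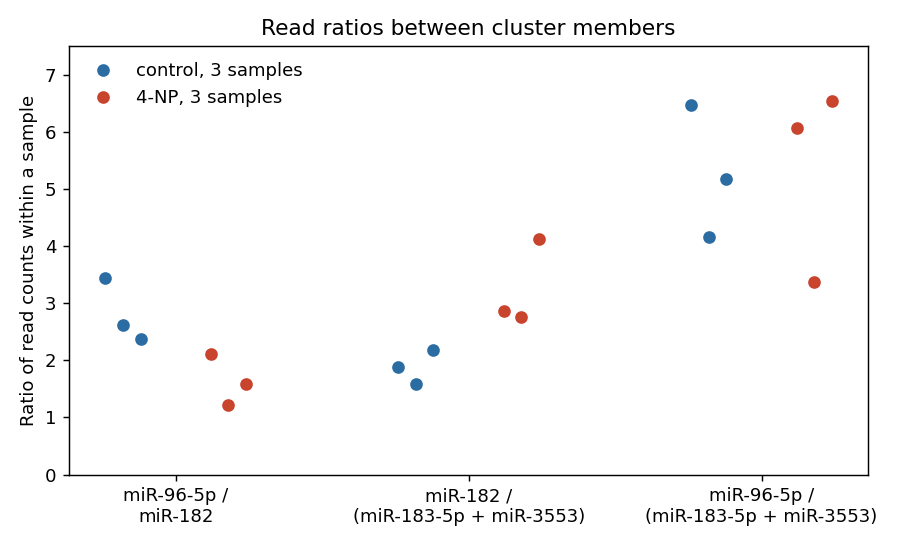
Ratios of read counts between cluster members within each sample (blue control, red 4-NP, 3 samples each). The ratio of miR-96-5p to miR-182 was lower and that of miR-182 to the miR-183 sum higher in every 4-NP sample than in any control, while the ratio of miR-96-5p to the miR-183 sum overlapped, from 3.37 to 6.54 over all samples.

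The table also has precursor rows, named for the mir-182, mir-96 and mir-183 families, which the table types as precursor and not as mature. RNA of 18 to 30 nt was sequenced, so these rows count short reads and not whole hairpins. Precursor mir-182 had 59, 37 and 73 reads in the control samples and 139, 117 and 145 under 4-NP, or 2.47 ± 0.838 and 6.25 ± 0.391 CPM (SD, n = 3 each), without overlap. Its log2 ratio of 1.34 (standard error 0.29) was below that of mature miR-182. There were 4.07, 7.78 and 3.74 mature reads per precursor read in the control samples and 9.29, 10.6 and 11.2 under 4-NP.

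Precursor mir-96 had 48, 31 and 41 reads in the control samples and 58, 44 and 65 under 4-NP. In CPM, the lowest 4-NP sample was only 1.07 times the highest control, and the log2 ratio was 0.57 (standard error 0.21). miR-96-5p had 17.2, 24.4 and 15.8 mature reads per precursor read in the control samples and 47.1, 34.5 and 39.6 under 4-NP, without overlap. Precursor mir-183, with 5, 19 and 11 reads against 22, 7 and 14, overlapped between the groups, and no difference was detectable at this depth. For both miR-182 and miR-96-5p the mature row differed more between the groups than the precursor row. The mature rows were proposed with their change already known, so this comparison is a description. Processing of the hairpins was not tested.

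A list of epithelial miRNAs, named for repression by ZEB1, did not follow the cluster. ZEB1 itself and its hold on each member were not examined. The list held miR-200a, miR-200b, miR-200c, miR-141, miR-429, miR-203a, miR-203b and miR-205, with 13 rows in the table. Of the 9 rows that passed the filter on low counts, edgeR called 0 higher and 5 lower at an adjusted p under 0.05, beside 7.47% higher and 12.8% lower among all tested. With RLE factors or total-count scaling the count was the same, and without control replicate 1, control replicate 2 or 4-NP replicate 3 it was 3 lower. The median log2 fold change of the 9 was -1.12, against -0.015 over all 549. The summed level of the 13 rows was 32.3 to 34.6 CPM in the control samples and 15.4 to 19.4 CPM under 4-NP.

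The lower rows were miR-203a-3p, miR-203a-5p, miR-203b-5p, miR-200a-3p and miR-429. The miR-203a rows are arms of the same hairpin, miR-203b-5p overlaps miR-203a-3p, and miR-200a-3p and miR-429 belong to the same family. The rows are therefore not independent, and their count is not a count of separate genes. miR-203a-3p, a miRNA of stratified epithelium, had 348, 369 and 368 reads in the control samples and 224, 168 and 163 under 4-NP, with log2 fold change -0.89 ± 0.14 (standard error) and an adjusted p of 0.00675 from edgeR. miR-203b-5p lies on the strand opposite to it, with 80, 82 and 72 against 20, 18 and 12 reads, and reads of the pair could have been divided in the counting. miR-429, of the miR-200 family, had 86, 79 and 72 reads in the control samples and 32, 37 and 33 under 4-NP, with log2 fold change -1.12 ± 0.19 (standard error) and an adjusted p of 0.00807 from edgeR. The log2 fold changes of the other 4 tested rows (miR-141-3p, miR-200b-3p, miR-200c-3p and miR-205) were -1.31 to -0.26, and these rows did not pass the test. The cluster and the list were chosen in different ways, and the difference between them was not tested. This list and those below were chosen with earlier results of these data known, so their counts and adjusted p-values are descriptions.

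**Figure D5:**
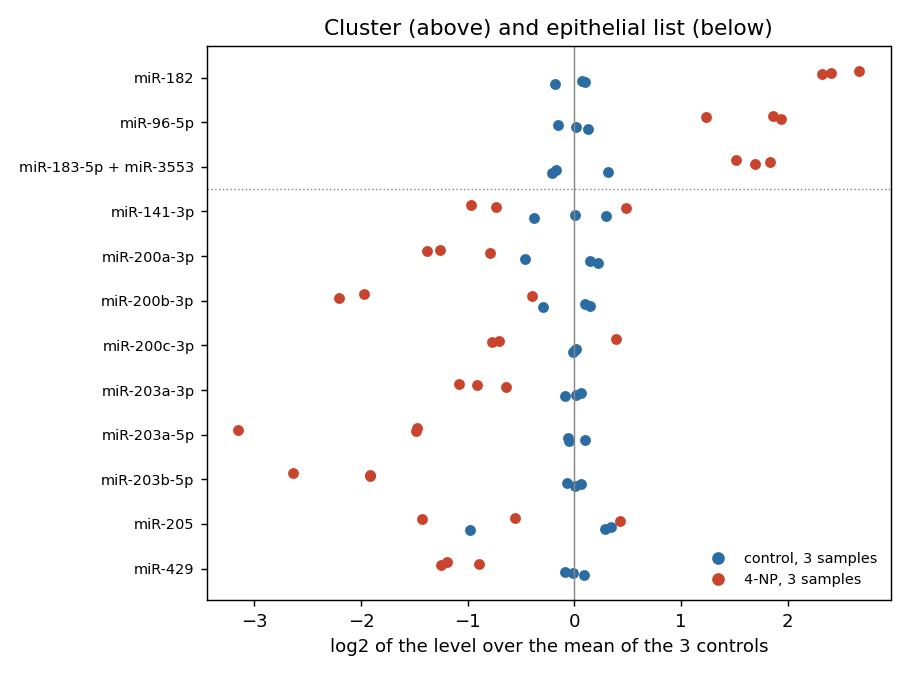
log2 of the level in each sample over the mean of the 3 controls for miR-182, miR-96-5p and the miR-183 sum (above the dotted line) and for the 9 tested rows of the epithelial list (below it), blue control and red 4-NP. Every 4-NP point of the cluster lies to the right of its controls. The 4-NP points of miR-200a-3p, miR-203a-3p, miR-203a-5p, miR-203b-5p and miR-429 lie to the left of theirs. So do those of miR-200b-3p, which did not pass the test.

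Of the neural and retinal list (miR-124, miR-9a, miR-7a, miR-7b, miR-204 and miR-211), edgeR called 1 of 6 tested rows higher and 0 lower at an adjusted p under 0.05, beside 7.47% higher and 12.8% lower among all tested. The higher row was miR-7a-5p, which is abundant in neurons and endocrine cells. It had 1669 ± 178 CPM in the control samples and 3918 ± 234 CPM under 4-NP (SD, n = 3 each). The summed list, 1546 to 1923 CPM in the control samples and 3853 to 4248 CPM under 4-NP, was mostly this row. Of the other tested rows, miR-204-5p, miR-9a-5p and miR-211-5p had log2 fold changes of -0.69, -0.30 and -0.14. miR-9a-3p and miR-124-3p had 0.32 and 0.25, and none of these rows passed the test.

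Marker lists were also read for other cell types, without knowing whether the culture held each of them. The counts of higher and lower rows stand beside 7.47% higher and 12.8% lower among all 549 tested miRNAs. miR-202, a miRNA of gonadal somatic cells, was present in every sample, with its 2 rows summing to 807 to 1195 CPM in the control samples and 698 to 796 CPM under 4-NP. Most of this was miR-202-5p, with 1026 ± 200 and 746 ± 46.7 CPM (SD, n = 3 each) and a log2 fold change of -0.48. miR-202-3p had 0 reads in 4-NP sample 3, and 0 of the 2 tested rows were higher or lower. Of the meiotic and postmeiotic germ cell list, 4 of 5 tested rows were higher under 4-NP, the arms of miR-34b and miR-34c, which also belong to the p53 response. The summed level of this list was 150 to 167 CPM in the control samples and 162 to 197 CPM under 4-NP. miR-449a-5p, its most abundant row, did not pass the test, with 124 ± 8.54 and 106 ± 13.5 CPM (SD, n = 3 each). Arms of the same hairpin are not independent rows. The rats were 5 to 10 days old, and whether the culture held meiotic or postmeiotic germ cells was not examined.

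Of the list for pluripotent and early germ cells, the miR-290 to miR-295 rows summed to 3.14 to 5.08 CPM in the control samples and 1.15 to 1.58 CPM under 4-NP, with 1 of 2 tested rows lower. The table had no row of miR-302a, miR-302b, miR-302c or miR-302d. The endothelial miR-126 rows summed to 6325 to 7615 CPM in the control samples and 3234 to 3805 CPM under 4-NP, with 2 of 2 tested rows lower. The smooth muscle and myoid rows of miR-143 and miR-145 had 120596 to 136273 CPM in the control samples and 88389 to 96697 CPM under 4-NP, with 2 of 4 lower.

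The erythroid list had 11.0 to 40.7 CPM in the control samples and 59.3 to 631 CPM under 4-NP, with 1 of 2 tested rows, miR-451-5p, higher. The leukocyte list had 18.2 to 22.4 and 17.3 to 36.9 CPM, the striated muscle list 100 to 121 and 114 to 138 CPM, and liver miR-122-5p 0.0427 to 0.538 and 0.271 to 21.7 CPM. No tested row of these last 3 lists passed an adjusted p of 0.05 in edgeR. In bulk samples fewer cells of a type and less RNA per cell cannot be told apart, and the part of other cells in the cluster's levels was not tested.

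The miRNAs with the pattern most like the cluster depended on how miR-183 was counted. Likeness was Pearson's r over the 6 samples of log2(CPM + 1) with the mean of miR-96-5p, miR-182 and miR-183, among 460 known miRNAs that averaged at least 20 reads. With the miR-183 sum, chosen after the values were seen, the 5 most alike were miR-320-3p (r = 0.994), miR-423-5p (0.991), miR-7a-5p (0.987), miR-708-5p (0.985) and miR-34c-3p (0.984). With miR-183-5p alone they were miR-421-5p (0.994), miR-152-3p (0.977), miR-30d-5p (0.975), miR-466c-5p (0.972) and miR-361-5p (0.963), and 0 of the 5 were in both.

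miR-320-3p, which is made without cleavage by Drosha, had 119 ± 6.93 CPM in the control samples and 351 ± 8.81 CPM under 4-NP (SD, n = 3 each). miR-708-5p had 76.6 ± 3.24 and 252 ± 31.5 CPM. After the group means were subtracted, the 5 most alike with the sum were miR-92b-3p (r = 0.981), miR-331-3p (0.938), miR-380-5p (0.933), miR-146b-3p (0.928) and miR-125b-1-3p (0.918). With miR-183-5p alone they were miR-421-5p (0.993), miR-3473 (0.985), miR-30d-5p (0.983), miR-15b-5p (0.965) and miR-3570 (0.941), the last from an opposite-strand pair that parted the samples as miR-183-5p and miR-3553 did. Again 0 of the 5 were in both. Each r rests on 6 samples and is among the highest of 460, so large values can arise by chance. Where the group means were subtracted, fewer than 6 values are free to vary. An r over all samples also includes the difference between the groups on which the cluster was chosen. Shared control of these miRNAs and the cluster was not tested.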

How the data were processed

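Small RNA of rat primary sertoli cells was sequenced in 3 control and 3 4-NP samples. The authors excised RNA of 18 to 30 nt, ligated adapters with molecular identifiers, amplified and sequenced it, and deposited 1 table of raw read counts per small RNA. The submitters' processing notes name HISAT2 and DESeq2 without version or role, and the paper names FastQC and edgeR. The miRNA database, genome build and strand rule are not given in the sources used here. A deposited second column per sample, named for the identifiers, is of another kind (1 in each mature row with reads) and was not used. The 4 rows of exon, intron, intergenic and repeat totals (3.52 to 5.91% of counts) were left out.

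The cluster rows and all lists were chosen with earlier results of these data known. Groups, and replicate numbers, came from the sample titles. Levels are counts divided by the sum of mature counts. The log2 ratio of group means has a standard error from the replicate SDs. The background and the lists were tested with edgeR 4.0.16 in R 4.3.3 (TMM, filterByExpr, two-sided quasi-likelihood F test, no block, Benjamini-Hochberg adjustment over 549 miRNAs), checked on simulated data. Its log2 fold changes are on the TMM scale, and their standard errors come from the F statistic. Counts of replicates differed by 132 to 806 chi-square units per degree of freedom, so none was merged. Alternatives were RLE and total-count scaling, library sizes without miR-21-5p (62.0 to 63.9% of mature reads) or over all small RNAs, DESeq2 1.42.0, edgeR's exact test, limma 3.58.1 on log2(CPM + 1) and log2(CPM + 0.1), no filter, at least 10 counts in every sample, known miRNAs only, a replicate block, and omission of each sample. The summed row was added after the values were seen, as were the comparison of opposite-strand pairs and the likeness with the sum. The rule named every cluster row, their precursor rows, seed relatives, each list's counts, the epithelial rows and the 5 miRNAs most like the cluster; miR-7a-5p, miR-449a-5p, miR-451-5p and the 3 other opposite-strand pairs were named after their values were seen. Python 3.11.15 was used for the rest.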

Additional observations from a re-analysis of the deposited data

How the results depend on the processing

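The log2 ratios of miR-182, miR-96-5p and the sum of miR-183-5p and miR-3553 moved by less than 1 SD between replicates under all 12 alternatives, among them TMM and RLE library sizes, and without each sample they were 2.37 to 2.55, 1.58 to 1.90 and 1.59 to 1.87. miR-183-5p alone ranged from 1.90 to 3.84 without 1 sample, and miR-3553 from -0.16 (without 4-NP replicate 3) to 1.69. With a replicate block, 26 miRNAs were higher, against 41, and the log2 ratios within a number averaged 2.47 for miR-182, 1.68 for miR-96-5p and 1.70 for the sum. Samples with the same number did not deviate together (r of -0.301, -0.267 and -0.021), and 0 of the 3 controls correlated best with its own number, so the numbers were not taken as pairs. Rows under about 20 reads (the 3p arms and precursor mir-183) are limited by depth.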
